A study of Mus musculus with 6 samples.

Results

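Interleukin-1, TNF, IL-6, IL-10, the inflammasome and the inducible cyclooxygenase were followed in cultured mouse microglia at 21% and 1% oxygen through 10 genes, Il1a, Il1b, Il1rn, Il18, Nlrp3, Casp1, Tnf, Il6, Il10 and Ptgs2. They were taken by symbol from the 30176 genes named by array features that carried a single gene symbol, and each of the 10 had exactly 1 feature. Microglia are the resident phagocytes of the brain. The cells came from newborn pups of the CD1 strain, with 5 pups pooled. The labels name 3 cultures (numbered 3, 4 and 6), and each gave 1 array after 6 h at 21% oxygen (normoxia) and 1 array after 6 h at 1% oxygen (hypoxia). No inflammatory stimulus and no genetic change are named for any culture. Each value is the log2 intensity of a feature, which the authors normalized over the 6 arrays by RMA, so a difference of 1 is a doubling.

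In textbook terms, macrophages and microglia release inflammatory cytokines in steps. Danger signals first switch on cytokine genes through the transcription factor NF-kB. For IL-1beta and IL-18 a further step is needed, in which the sensor NLRP3 assembles an inflammasome and activates caspase-1, which cuts the inactive precursors. The receptor antagonist encoded by Il1rn, the cytokine IL-10 and feedback inhibitors restrain the response, while Ptgs2, which encodes cyclooxygenase 2, starts the synthesis of prostaglandins.

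The sequences before the transcription starts of 5 of these genes, chosen for results given below, are shown. Ptgs2, Il1a and Il6 differed between the cultures, and Casp1 and Tnf were lower at 1% oxygen in each culture. Il18 was lower in each culture as well, and its window is not shown. Each line holds the 250 bases before the start as RefSeq gives it on GRCm38.p6, read in the direction of the gene, 5' to 3'. Capitals mark every match, on either strand, to the core of the hypoxia response element (ACGTG or GCGTG), the AP-1 motif (TGANTCA), a motif like the cAMP response element (TGACGT) or the NF-kB motif.
Ptgs2: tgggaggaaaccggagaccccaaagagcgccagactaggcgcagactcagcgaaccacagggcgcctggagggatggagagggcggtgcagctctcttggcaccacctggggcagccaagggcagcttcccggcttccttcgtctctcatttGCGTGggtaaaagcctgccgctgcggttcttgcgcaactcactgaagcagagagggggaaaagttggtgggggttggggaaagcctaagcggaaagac
Il1a: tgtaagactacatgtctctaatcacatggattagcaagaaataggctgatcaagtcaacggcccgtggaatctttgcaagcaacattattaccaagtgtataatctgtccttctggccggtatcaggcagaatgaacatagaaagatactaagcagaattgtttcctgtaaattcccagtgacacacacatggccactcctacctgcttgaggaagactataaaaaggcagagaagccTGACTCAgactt
Il6: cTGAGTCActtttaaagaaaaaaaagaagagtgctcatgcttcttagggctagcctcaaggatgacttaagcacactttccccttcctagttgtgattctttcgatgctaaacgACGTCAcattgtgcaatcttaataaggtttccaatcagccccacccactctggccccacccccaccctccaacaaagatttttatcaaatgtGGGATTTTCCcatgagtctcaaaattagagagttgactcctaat
Casp1: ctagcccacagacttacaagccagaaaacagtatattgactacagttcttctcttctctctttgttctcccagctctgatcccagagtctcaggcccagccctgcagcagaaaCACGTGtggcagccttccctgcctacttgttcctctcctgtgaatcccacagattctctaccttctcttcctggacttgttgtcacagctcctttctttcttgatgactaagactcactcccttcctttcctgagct
Tnf: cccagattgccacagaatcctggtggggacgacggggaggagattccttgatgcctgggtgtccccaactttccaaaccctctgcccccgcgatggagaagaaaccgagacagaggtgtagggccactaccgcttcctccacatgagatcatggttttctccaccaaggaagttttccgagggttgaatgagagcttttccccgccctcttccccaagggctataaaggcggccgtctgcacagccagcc

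The windows lie at chr1:150099781-150100030 on the plus strand for Ptgs2, chr2:129309973-129310222 on the minus strand for Il1a and chr5:30012864-30013113 on the plus strand for Il6. Those of Casp1 (plus strand) and Tnf (minus strand) lie at chr9:5298267-5298516 and chr17:35202008-35202257. Ptgs2 held the hypoxia response core GCGTG from 98 to 94 bases before the start. Casp1 held CACGTG, which reads as the core on both strands, with its overlapping matches between 137 and 132 bases before the start. Such a core stood in 38.6% of all 32851 windows of this length, and its presence here is to be read against that share. Il6 held an AP-1 match at 249 to 243 bases, an ACGTCA match at 136 to 131 bases and the NF-kB match GGGATTTTCC at 44 to 35 bases before the start. Il1a held the AP-1 match TGACTCA 12 to 6 bases before the start. The span of Il1a reaches position 129310186, so its window precedes a start inside that span and overlaps the gene. Matches to AP-1, the cAMP-type motif and NF-kB were found in 6.75%, 6.47% and 7.25% of all windows. No letters of these motifs were found in the Tnf window. Of the windows not shown, those of Il18 and Il1b held no match either. A window of Nlrp3 held a hypoxia response core and letters of the NF-kB motif, and a window of Il1rn held a core and an AP-1 match. A match is a description of letters and says nothing of binding in these cells.

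Of 4 well-known targets of the hypoxic response, 4 rose. Egln3, a HIF prolyl hydroxylase, and the glucose transporter gene Slc2a1 were higher by 3.30 (standard error 0.07) and 1.72 (0.09) on the log2 scale (adjusted p = 4.36e-05 and 0.00198 from limma). Array medians lay between 5.84 and 5.92. Of 12 microglial marker genes 11 were measured, and all 11 lay above 5.80, the level below which 95% of 1716 olfactory and vomeronasal receptor genes lay and which serves here as the limit of low intensity. For microglial markers 0 of 11 passed for a change at 1% oxygen (adjusted p from limma), and their median log2 fold change was -0.06. Before adjustment 1 was lower at p under 0.05, against 9.26% of all genes. Fibroblast and pericyte markers differed more. Of 11 measured, 10 lay above the limit, 8 differed between cultures, against 1.13% of all genes, and 2 rose at 1% oxygen, against 0.421%, with a median log2 fold change of 0.41. The 2 genes, Col1a1 and Col3a1, were not called without the block (adjusted p = 0.643 and 0.653 from limma). The summed intensity of the 11 measured fibroblast and pericyte markers was 5205, 1710 and 2000 in cultures 3, 4 and 6 at 21% oxygen. At 1% oxygen it was 6848, 2808 and 2677, so culture 3 held the highest level of these markers at both. In bulk RNA, more cells of a type and more RNA per cell cannot be told apart.

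At 1% oxygen, none of the 10 genes passed the test. By limma with the culture as a block and Benjamini-Hochberg adjustment over all genes, 0 of 10 were called at 0.05, while 0.537% of all genes were. Without the block 0 were called as well, against 0.225% of all genes. At an unadjusted p under 0.05, 3 were lower (Casp1, Il18 and Tnf), against 9.26% of all genes, and 1 was higher (Ptgs2), against 7.68%. The median log2 fold change of the 10 was -0.08, and that of all genes 0.03. Most of the 10 are among the brightest genes, with log2 intensities from 8.11 to 14.7, whose median was -0.07. The values below therefore describe sizes and intervals, with a 95% interval for each gene taken alone, and no change is claimed for any of them. With 3 cultures, an exact permutation of signs over the paired differences cannot give a two-sided p below 0.25. With the block, the p-values for oxygen set the mean paired difference against the spread of that difference across cultures, moderated by other genes. The labels do not say whether the cultures came from separate litters, so these p-values speak only of these cultures.

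**Figure D1:**
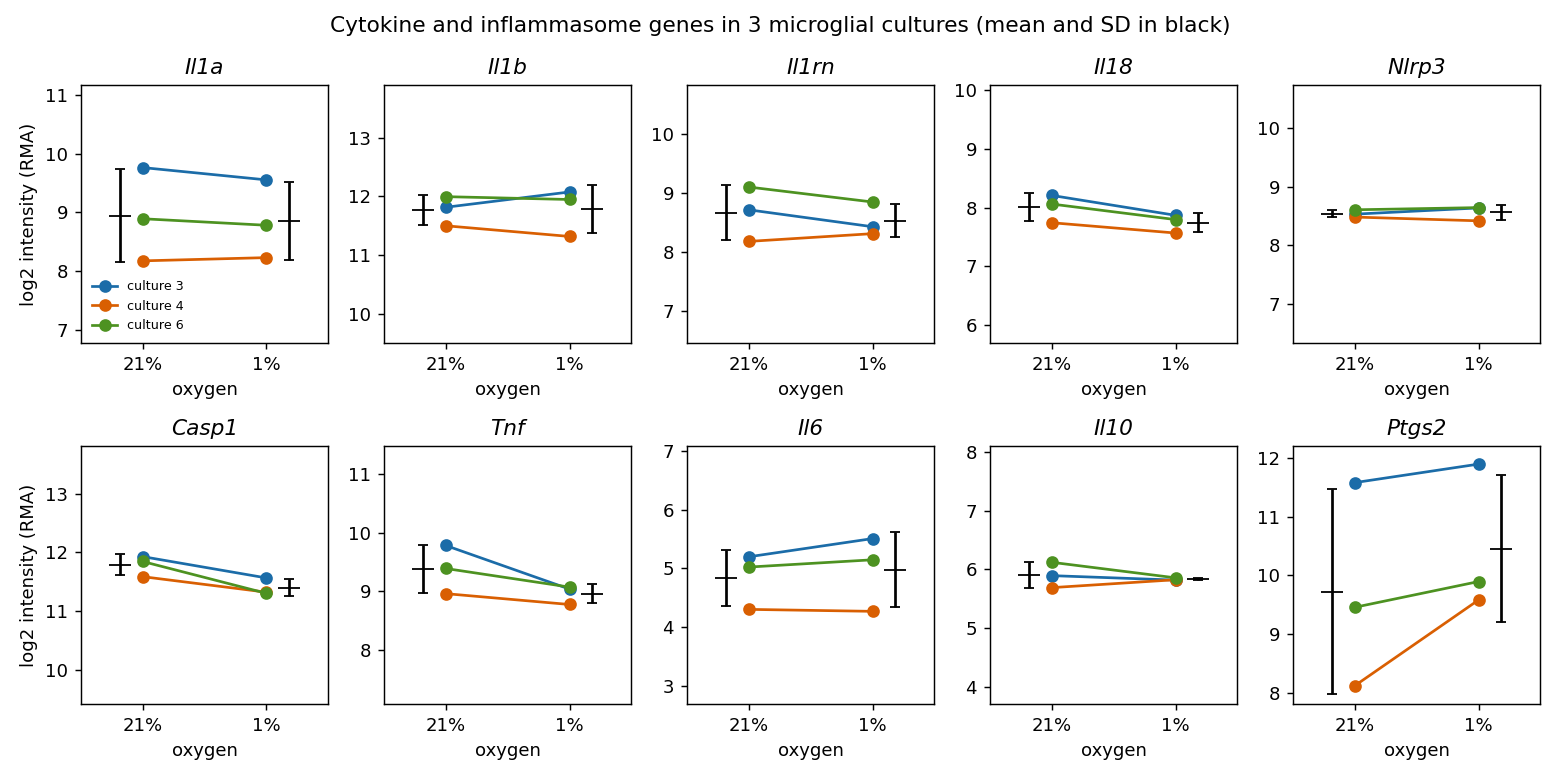
Log2 intensity (RMA, vertical axis, each panel spanning the same number of units) of the 10 genes at 21% and 1% oxygen. Points are single arrays, lines join the arrays of a culture, and black marks give the mean and SD of 3 cultures. The lines of Casp1, Il18 and Tnf all slope down and those of Ptgs2 all slope up, while Ptgs2 and Il1a spread widely between cultures.

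The genes of the IL-1 ligands and their antagonist had intervals that span 0. Il1b, the precursor of secreted IL-1beta (chromosome 2, 129364569 to 129371164), measured 11.81, 11.50 and 11.99 in cultures 3, 4 and 6 at 21% oxygen and 12.07, 11.32 and 11.95 at 1% oxygen. The groups overlapped, and the pairs went up in culture 3 and down in the others. Its log2 fold change was 0.01 (standard error 0.10, 95% interval -0.22 to 0.24, adjusted p = 0.962 from limma), an interval that spans 0.859- to 1.18-fold. Il1a, whose product is active as a precursor and acts as an alarm signal of damaged cells (chromosome 2, 129299609 to 129310186), measured 9.76, 8.18 and 8.89 at 21% oxygen and 9.55, 8.23 and 8.78 at 1% oxygen. The groups overlapped, with culture 3 highest and culture 4 lowest in both. The log2 fold change was -0.09 (standard error 0.07, 95% interval -0.27 to 0.09, adjusted p = 0.566 from limma). Il1rn, the antagonist that blocks the IL-1 receptor, went from 8.67 ± 0.46 to 8.53 ± 0.28 (SD, n = 3 cultures in each group). The change was -0.14 (95% interval -0.37 to 0.10), lower in cultures 3 and 6 and higher in culture 4. For these 3 genes the interval left out a change of 1 log2 unit in either direction.

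Casp1 and Il18 were lower at 1% oxygen in every culture, while Nlrp3 was not. Casp1, the protease that cuts the precursors of IL-1beta and IL-18 (chromosome 9, 5298517 to 5307281), measured 11.93, 11.59 and 11.84 in cultures 3, 4 and 6 at 21% oxygen and 11.56, 11.32 and 11.30 at 1% oxygen. All 3 hypoxia arrays lay below all 3 normoxia arrays, which held for 7.58% of all genes in that direction. Its log2 fold change was -0.39 (standard error 0.08, 95% interval -0.57 to -0.21), or 0.763-fold, with an adjusted p = 0.100 from limma. It was the member with the lowest p, and it ranked 538 of 30176 genes by the size of its moderated statistic. Il18, the other cytokine cut by caspase-1 (chromosome 9, 50554700 to 50581841), measured 8.21, 7.74 and 8.06 at 21% oxygen and 7.87, 7.57 and 7.80 at 1% oxygen. It was lower in each culture, by 0.34, 0.18 and 0.26 log2 units, although the groups overlapped. The mean change was -0.26 (standard error 0.07, 95% interval -0.42 to -0.10, adjusted p = 0.157 from limma). Nlrp3, the sensor that nucleates the complex, was the steadiest of the 10 across the normoxic cultures, with 8.53, 8.48 and 8.61 at 21% oxygen and 8.64, 8.42 and 8.64 at 1% oxygen. The change was 0.03 (95% interval -0.14 to 0.19, adjusted p = 0.850 from limma). The interval of the sensor gene held 0 and that of the protease gene did not, and the difference between their changes was not tested. Casp1 is among the brightest genes, whose log2 intensities run from 8.11 to 14.7 and whose median log2 fold change was -0.07. The same range holds Tnf, Il1a, Il1rn and the list genes Casp4, Nek7, Cflar and Hpgds named below, whose estimates were below 0. It also holds Il1b, Nlrp3, Ptgs2, Irak3 and Tnfaip3, whose estimates were above 0.

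Tnf, the gene of tumor necrosis factor (chromosome 17, 35199367 to 35202007), was also lower in each culture. It measured 9.78, 8.96 and 9.39 in cultures 3, 4 and 6 at 21% oxygen and 9.04, 8.78 and 9.07 at 1% oxygen. The differences were -0.74, -0.18 and -0.32, the largest in the culture that started highest, and the SD between cultures was 0.41 at 21% and 0.16 at 1% oxygen. The log2 fold change was -0.41 (standard error 0.11, 95% interval -0.69 to -0.14), or 0.750-fold, with an adjusted p = 0.169 from limma. Without culture 3 the change was -0.25 (adjusted p = 0.264), so that culture moved the value by over 1.5 times. Together, 3 of 10 members (Casp1, Il18 and Tnf) were lower in all 3 cultures, as were 17.5% of all genes and 24% of genes above the limit of low intensity.

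Il6 and Il10 were dim. Il6, which encodes a cytokine of the acute-phase response, lay below the limit of 5.80 on all 6 arrays, at 5.20, 4.30 and 5.02 in cultures 3, 4 and 6 at 21% oxygen and 5.51, 4.27 and 5.15 at 1% oxygen. Its log2 fold change of 0.13 (95% interval -0.07 to 0.33, adjusted p = 0.452 from limma) therefore was measured in the range of low intensity. Il10, an anti-inflammatory cytokine, stood near the limit at 5.89, 5.69 and 6.12 at 21% oxygen and 5.82, 5.82 and 5.86 at 1% oxygen. Its change was -0.07 (95% interval -0.28 to 0.15), and the cultures did not share a direction.

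Ptgs2, the inducible cyclooxygenase gene (chromosome 1, 150100031 to 150108234), had the largest change of the 10 and the largest spread. It measured 11.58, 8.12 and 9.46 in cultures 3, 4 and 6 at 21% oxygen and 11.89, 9.58 and 9.90 at 1% oxygen. It was higher in each culture, as were 24.8% of all genes and 22.8% of those above the limit of low intensity, but unevenly, by 1.46 in culture 4, which started lowest, and by 0.32 and 0.44 in cultures 3 and 6. The log2 fold change was 0.74 (standard error 0.21, 95% interval 0.23 to 1.25), or 1.67-fold, with an adjusted p = 0.184 from limma. Without culture 4 it was 0.38 (adjusted p = 0.167). The plain SD of the 3 differences was 0.63, close to the change itself, and limma's standard error borrows from the spread of other genes. Summed fibroblast and pericyte markers were also higher at 1% oxygen in each culture. They went from 5205 to 6848 in culture 3, from 1710 to 2808 in culture 4 and from 2000 to 2677 in culture 6. The part of these other cells in the change of Ptgs2 was not tested.

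**Figure D2:**
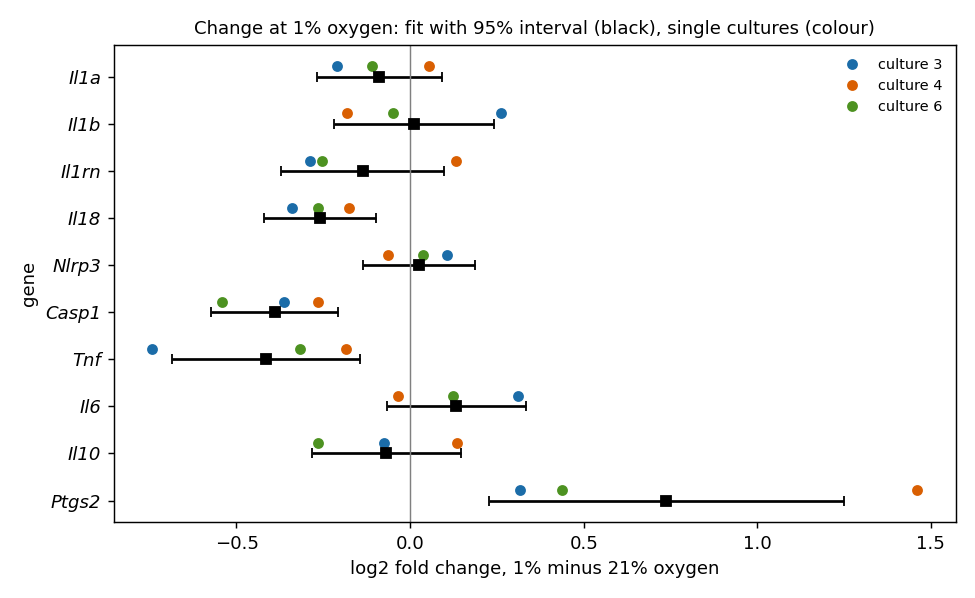
Log2 fold change (horizontal axis, 1% minus 21% oxygen) for each gene. Black squares and bars give the limma estimate paired by culture with its 95% interval for that gene alone, and coloured points the difference in each culture. The bars of Casp1, Il18 and Tnf lie below 0 and that of Ptgs2 above it, and none of the 10 passed after adjustment over all genes.

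Ptgs2, Il1a and Il6 differed between the cultures by more than their mean difference between oxygen levels. In the same fit, a moderated F test of the culture terms called 3 of 10 members (Il1a, Il6 and Ptgs2) at an adjusted p under 0.05, against 1.13% of all genes. Ptgs2 differed by 3.46 log2 units, 11.0-fold, between cultures 3 and 4 at 21% oxygen, a range that ranked 4 of 30176 genes. Il1a differed by 1.59 log2 units, 3.01-fold, and ranked 73. Il6, below the limit throughout, spanned 0.89 log2 units at 21% and 1.24 at 1% oxygen. These gaps lie between single arrays and were not tested themselves. The F test, which takes all culture terms over both oxygen levels, gave adjusted p = 0.0127 for Ptgs2, 0.00508 for Il1a and 0.0146 for Il6 (limma). In Ptgs2, Il1a and Il6 culture 3 was highest and culture 4 lowest at both oxygen levels, so the order did not turn with the treatment. A range above 1 log2 unit among the normoxia arrays was found in 0.729% of all genes.

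**Figure D3:**
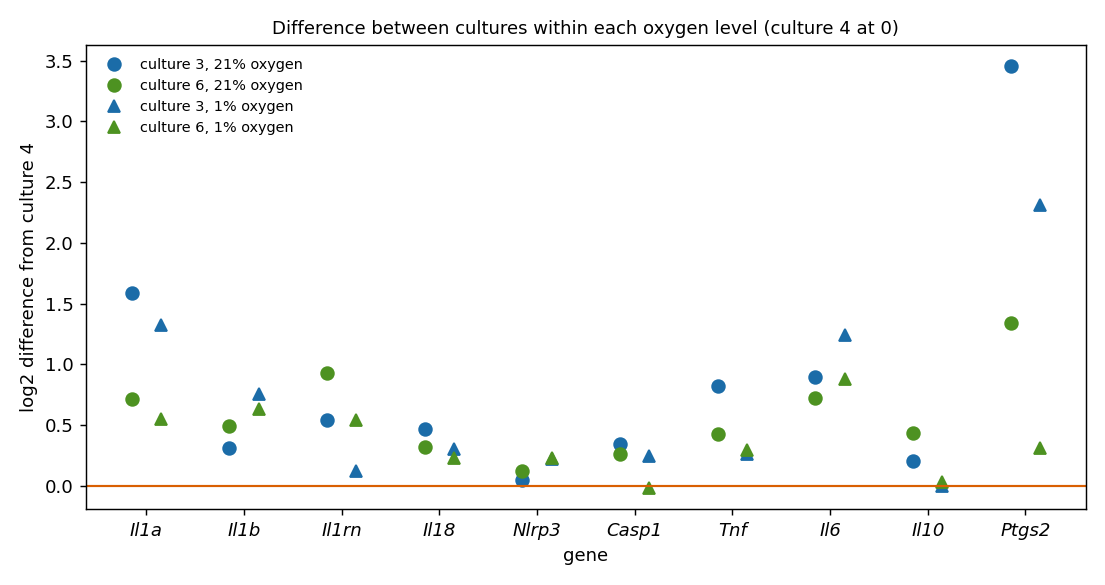
Log2 difference of cultures 3 and 6 from culture 4 (orange line at 0) for each gene, at 21% oxygen (circles) and 1% oxygen (triangles), 1 array per point. Ptgs2 in culture 3 stands 3.46 above culture 4 at 21% oxygen, and all circles lie above 0.

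Il1rn had an adjusted p of 0.0990 and Il1b one of 0.139 for the difference between cultures (limma), and Nlrp3 one of 0.466. Yet the direction was shared. At 21% oxygen all 10 members were lowest in culture 4, whereas 31.3% of all genes were (34.5% of those above the limit). At 1% oxygen 8 of 10 were lowest there, against 25.6% of all genes, the others being Casp1, lowest in culture 6, and Il10, lowest in culture 3. This pattern was noticed after the values were seen, and the genes are measured on the same arrays, so they are not separate observations. Culture 3 also had the highest sum of fibroblast and pericyte, of astrocyte and of endothelial markers at both oxygen levels. Other lists did not share this. The sum of oligodendrocyte lineage markers was lowest in culture 3 at both levels (1388 at 21% and 1417 at 1% oxygen). The sums of neuron markers and of neutrophil and monocyte markers were highest in culture 3 at 21% oxygen but not at 1% oxygen. The astrocyte sums ran from 550 to 675 at 21% and from 638 to 774 at 1% oxygen, and the endothelial sums from 1003 to 1297 and from 1225 to 1466. The astrocyte gene Gfap and the endothelial gene Cdh5 were called between cultures (adjusted p = 0.0101 and 0.00681 from limma). Each was the only 1 called of the 8 measured genes of its list. At 21% oxygen 6 of 8 astrocyte and 3 of 8 endothelial markers were highest in culture 3, against 8767 of all 30176 genes. The endothelial markers in particular therefore did not share that order. Of the 8 astrocyte markers, 4 lay above the limit of low intensity. Without culture 3, 0 members and 0 of all genes were called for a difference between the remaining cultures. Without culture 4 or culture 6, 2 and 3 members were called, so calls came only from fits that held culture 3. With 1 residual degree of freedom, a missing call does not show that cultures 4 and 6 are alike. At 21% oxygen these 2 cultures stood at 8.12 and 9.46 for Ptgs2 and at 8.18 and 8.89 for Il1a. The part of the other cells in the culture differences was not tested. Of the 11 microglial markers, 6 were also lowest in culture 4 at 21% oxygen and 5 at 1% oxygen, among them Cx3cr1, P2ry12, Tmem119, Aif1 and Siglech at both. Others went the opposite way, as Csf1r, Itgam, Trem2 and Sall1 were highest in culture 4 at both oxygen levels. For a difference between cultures 0 of 11 were called. Their summed intensity, which a few bright genes carry, lay between 31798 and 33525 at 21% oxygen and between 30224 and 34200 at 1% oxygen.

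Of the other genes in these pathways, 1 passed. Over 5 lists with 98 genes, 90 were measured, 1 rose and 0 fell at 1% oxygen, while 0.421% of all genes rose and 0.116% fell. Before adjustment, 12 of 90 were higher and 6 lower at p under 0.05, against 7.68% and 9.26% of all genes. The gene that rose was Osmr, the receptor subunit for oncostatin M, an IL-6 family cytokine. It measured 7.78, 6.12 and 6.13 in cultures 3, 4 and 6 at 21% oxygen and 8.80, 7.03 and 6.77 at 1% oxygen. The log2 fold change was 0.85 (standard error 0.09, adjusted p = 0.0224 from limma), higher in all 3 cultures, although the groups overlapped because culture 3 was high at both oxygen levels. The call was lost without the block (0.85, adjusted p = 0.648) and without culture 3 (0.77, adjusted p = 0.180), although the fold was about as large. Osmr differed between cultures as well (adjusted p = 0.00322 from limma). Fibroblast and pericyte markers were highest in culture 3 too, and their part in the level of Osmr was not tested. Lif, another ligand of this family, had a change of 0.22 (adjusted p = 0.196 from limma). The remaining 18 of the 19 measured genes of the IL-6 and IL-10 list did not pass, and the list had a median of 0.03.

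In the TNF list 0 of 16 genes passed (limma), with a median of 0.02. Before adjustment 1 was higher at p under 0.05, against 7.68% of all genes. Tnfaip3, which encodes the NF-kB feedback inhibitor A20, measured 8.99, 8.90 and 9.19 in cultures 3, 4 and 6 at 21% oxygen and 9.46, 9.44 and 9.54 at 1% oxygen. All hypoxia arrays lay above all normoxia arrays, which held for 8.24% of all genes in that direction. The log2 fold change was 0.45 (standard error 0.07, adjusted p = 0.0633 from limma), and it passed in 5 of 11 alternative settings (adjusted p 0.0325 to 0.0483). Cflar, an inhibitor of caspase-8, had a change of -0.18 (adjusted p = 0.358 from limma), and of -0.075 without culture 6.

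In the inflammasome list 0 of 18 genes passed (by limma, with 2 higher and 5 lower before adjustment, against 7.68% and 9.26% of all genes), with a median of -0.02. Casp4, the mouse caspase-11 gene of the non-canonical pathway, went from 9.62 ± 0.12 to 9.27 ± 0.20 (SD, n = 3). All its hypoxia arrays lay below all its normoxia arrays, which held for 7.58% of all genes in that direction. Its limma estimate was -0.36 with a standard error of 0.09 (adjusted p = 0.153), beside -0.39 for Casp1. Nek7, a kinase that binds NLRP3, had a change of -0.29 (adjusted p = 0.203 from limma).

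In the IL-1 family list 0 of 19 measured genes passed (by limma), with a median of 0.08. Before adjustment 3 were higher, against 7.68% of all genes. Of the 19, 8 lay above the limit of low intensity. The signalling genes Traf6 and Irak3 had changes of 0.34 (adjusted p = 0.211 from limma) and 0.12 (adjusted p = 0.521), and of 0.18 and 0.012 without culture 4. Irak3 was at 0.21 without culture 6. In the prostanoid list 0 of 18 passed (by limma), with a median of 0.06. Before adjustment 4 were higher and 1 lower, against 7.68% and 9.26% of all genes. Hpgds, a prostaglandin D synthase of hematopoietic cells, went from 11.58 ± 0.21 to 11.24 ± 0.11 (SD, n = 3), which limma put at -0.34 with a standard error of 0.07 (adjusted p = 0.112). Ptges, the prostaglandin E synthase that works downstream of cyclooxygenase 2, had a change of 0.23 (adjusted p = 0.339 from limma), with -0.02, 0.51 and 0.20 in cultures 3, 4 and 6. It was 0.088 without culture 4 and 0.35 without culture 3.

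**Figure D4:**
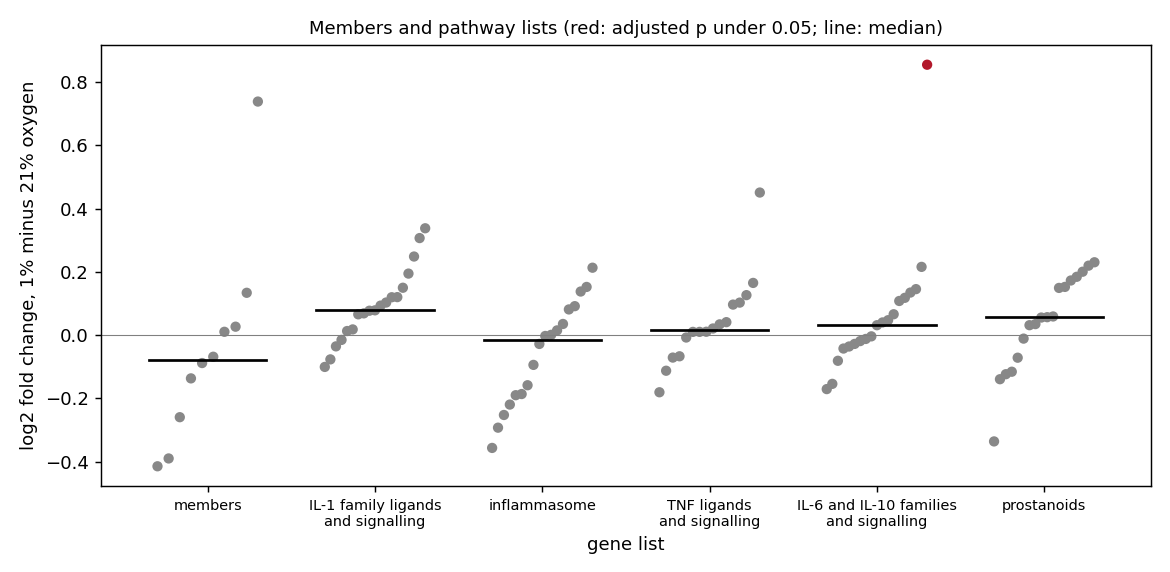
Log2 fold change (vertical axis, 1% minus 21% oxygen, paired by culture) of the 10 members and of the measured genes of 5 pathway lists. Each point is a gene, black lines are list medians, and the only red point, Osmr at 0.85, passed at an adjusted p under 0.05.

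As a description of likeness over the 6 arrays, the named genes whose levels followed Tnf most closely were Aif1, Pgm2l1 and Ndufb6 (Pearson r of 0.995, 0.990 and 0.986). Aif1 encodes IBA1, a marker of microglia, and its own log2 fold change was -0.12 (adjusted p = 0.386 from limma). For Il1b they were Gbp3, Mx2 and Ascc2 (r of 0.976, 0.972 and 0.968), with Gbp3 and Mx2 being interferon-induced genes. Among 13832 candidate genes, 56 had an r above 0.95 with Tnf and 21 with Il1b. The arrays share 3 cultures, so these are not 6 separate samples.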

How the data were processed

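Total RNA of primary microglial cultures was hybridised to one-colour Affymetrix arrays, 1 per culture and condition. The deposited values are log2 intensities after RMA by the authors. Affymetrix Expression Console, limma and the build mm10 (GRCm38) are also listed in the submitters' processing notes, with no version. No filter is named in the sources. No background value was used, and precision is limited by how few arrays there are.

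The values were used as deposited. Of 72688 features, 30638 carried 1 gene symbol and 2176 several, and 39874 were unnamed here. Where a gene had several features (354 genes), the one with the highest mean was kept, which gave 30176 genes. The lists name the IL-36 genes by their GRCm38.p6 symbols (Il1f5, Il1f6, Il1f8 and Il1f9), and 8 of 98 list genes had no feature of their own. Hypoxia minus normoxia was fitted with limma 3.58.1 under R 4.3.3 (lmFit, eBayes), with the culture as a block. The p-values were adjusted by Benjamini-Hochberg across the 30176 genes and called under 0.05. The fit was tested on simulated data. The pairing comes from the culture numbers in the labels. After subtracting group means, the 2 arrays of a culture correlated with r of 0.57 (culture 3), 0.40 (culture 4) and 0.22 (culture 6), and arrays of different cultures with r of -0.50 to 0.14. Promoter windows were matched by symbol to RefSeq (GRCm38.p6), which gave 12 windows for 9 of 10 members.

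The members and lists were chosen with earlier results of these data known. The text names the 10 members, every called list gene, the 2 genes of each list with the largest change above the limit of low intensity, and the 3 established genes most correlated with Il1b and with Tnf. The alternatives were the fit without the block, median centring, quantile normalization, cyclic loess, array weights, a filter on dim genes, a variance trend, the median over the features of a gene, and leaving out each culture.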

Additional observations from a re-analysis of the deposited data

How the results depend on the processing

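Over 11 alternatives, 0 of the 10 members passed in either direction (9 were tested with dim genes left out, which removed Il6), and the lowest adjusted p of any member from limma lay between 0.0642 (Casp1, with dim genes left out) and 0.380 (without the replicate block). Casp1 (-0.45 to -0.29), Il18 (-0.30 to -0.22) and Tnf (-0.53 to -0.25) stayed below 0 and Ptgs2 (0.38 to 0.97) above 0 in all 11. The sign turned for values near 0, namely Il1b with median centring (-0.015) and array weights (-0.047), Nlrp3 with array weights (-0.0019) and Il10 with array weights (0.0012). Leaving out 1 culture gave -0.11 (without culture 3) to 0.11 for Il1b, -0.013 (without culture 3) to 0.072 for Nlrp3 and -0.17 to 0.029 (without culture 6) for Il10. It also moved Il1a to -0.028 without culture 3 and -0.16 without culture 4, Il1rn to -0.061, -0.27 and -0.078 without cultures 3, 4 and 6, and Il6 to 0.045 without culture 3 and 0.22 without culture 4, each by over 1.5 times.

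Over all genes, 127 were higher and 35 lower with the culture as a block. There were 63 and 5 without the replicate block (67 of these 68 shared with the 162), 80 and 19 with median centring, 249 and 144 with array weights, 207 and 108 with dim genes left out, 214 and 117 with the variance trend, and 17 lower with cyclic loess. Leaving out 1 culture gave 17 to 135 higher and 1 to 94 lower genes. The pathway lists held 2 higher genes with quantile normalization, cyclic loess, array weights, dim genes left out and the variance trend, 0 without the block, and 0 to 1 without 1 culture. Genes that differ between cultures numbered 0 to 744 and members 0 to 3 when 1 culture was left out, against 340 and 3 with all cultures, the zeros being those without culture 3. With 2 cultures 1 residual degree of freedom remains, and the causes of the other shifts were not tested. The single arrays limit every value, since no measure of signal over background was used.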
